A study of Mus musculus with 8 samples.

Results

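The autosomal genes Sdc4, Gnaz, Dscam, Zhx2, Arl4d and Tcf4 are described here in mouse natural killer (NK) cells with and without CIS. They are 6 of the 27179 genes in the deposited count table, and each was found by its symbol. They had been picked for a difference between CIS-null and wild-type cells that was not the same in freshly isolated and cultured cells. They were thus chosen by their genotype changes in the 2 states and by the difference between those changes, measured in the same libraries. For that reason the genotype values below are a description and carry no test. RNA sequencing had been done on 8 libraries, 2 in each of 4 groups: CIS-null in vitro, wild-type in vitro, CIS-null ex vivo and wild-type ex vivo. CIS-null cells carry the genotype CIS-/-, the other cells are wild type, and all came from C57BL/6 mice. NK cells from spleen, bone marrow and blood had been purified with magnetic beads against CD49b (the DX5 antigen), then used directly (ex vivo) or after culture (in vitro). The labels do not give the design of the CIS allele, the age or sex of the mice, pooling, or the culture medium, cytokines and duration. Nothing in them tells whether 2 replicates are separate mice or cultures, and the p-values therefore cover only the variation among these libraries, which may be technical.

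NK cells are lymphocytes of the innate immune system that can kill virus-infected and tumour cells, and cytokines of the common gamma chain family sustain them in the body and expand them in culture. CIS, the product of Cish, is induced by such cytokines and restrains signalling through JAK kinases and STAT factors. The 6 genes belong to no single pathway. Sdc4 and Dscam encode proteins of the cell surface, Gnaz and Arl4d encode GTP-binding proteins that relay signals inside the membrane, and Zhx2 and Tcf4 encode transcription factors.

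Each library held 21.5 to 28.1 M counts. Levels are given as scaled counts per M counts (CPM), or as CPM per kilobase of counted gene length (RPKM) where genes are compared with each other. All 12 NK cell markers listed were detected in every group, at a summed level of 31402 to 36942 CPM in CIS-null in vitro, 21218 to 24879 CPM in wild-type in vitro, 30306 to 32113 CPM in CIS-null ex vivo and 28697 to 28770 CPM in wild-type ex vivo libraries. Cish was lower in each CIS-null library than in each wild-type library of the same state, with 21.2 and 17.2 CPM in CIS-null against 219.8 and 201.9 CPM in wild-type cells in vitro. Ex vivo it had 1.29 and 2.64 CPM in CIS-null and 9.26 and 9.12 CPM in wild-type cells. Markers of sex did not follow genotype alone. Xist, the RNA that coats the inactive X chromosome, had 131 and 89.7 CPM in CIS-null in vitro, 0 and 0.0351 CPM in wild-type in vitro, 0.322 and 0.197 CPM in CIS-null ex vivo, and 119.6 and 162 CPM in wild-type ex vivo libraries. The 4 libraries with abundant Xist were therefore those of CIS-null cells in vitro and wild-type cells ex vivo. In each state the genotypes thus differed in Xist. No genotype change below, in the chosen genes or in others, can be told apart from one that follows sex-linked expression in this design. This holds for a change within a state and for one that turns round between the states.

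All 6 genes had enough counts to be among the 13184 tested. Gnaz did so only through its counts in CIS-null ex vivo cells. Per unit of length, Arl4d was the most abundant of the 6 ex vivo, with 357 ± 19.2 RPKM in CIS-null and 333 ± 7.16 RPKM in wild-type cells (SD, n = 2 each), above 98.6% of tested genes in each group. In vitro the most abundant was Sdc4 in both genotypes, with 12.6 ± 2.31 RPKM in CIS-null and 34.2 ± 0.266 RPKM in wild-type cells (SD, n = 2 each). Dscam was the least abundant of the 6 in CIS-null ex vivo cells, at 0.242 ± 0.0292 RPKM (SD, n = 2), and Gnaz was the least abundant in the other 3 groups. Genotype changes are given as log2 fold changes, CIS-null over wild-type, each with its standard error (SE) from a fit of all 8 libraries.

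**Figure D1:**
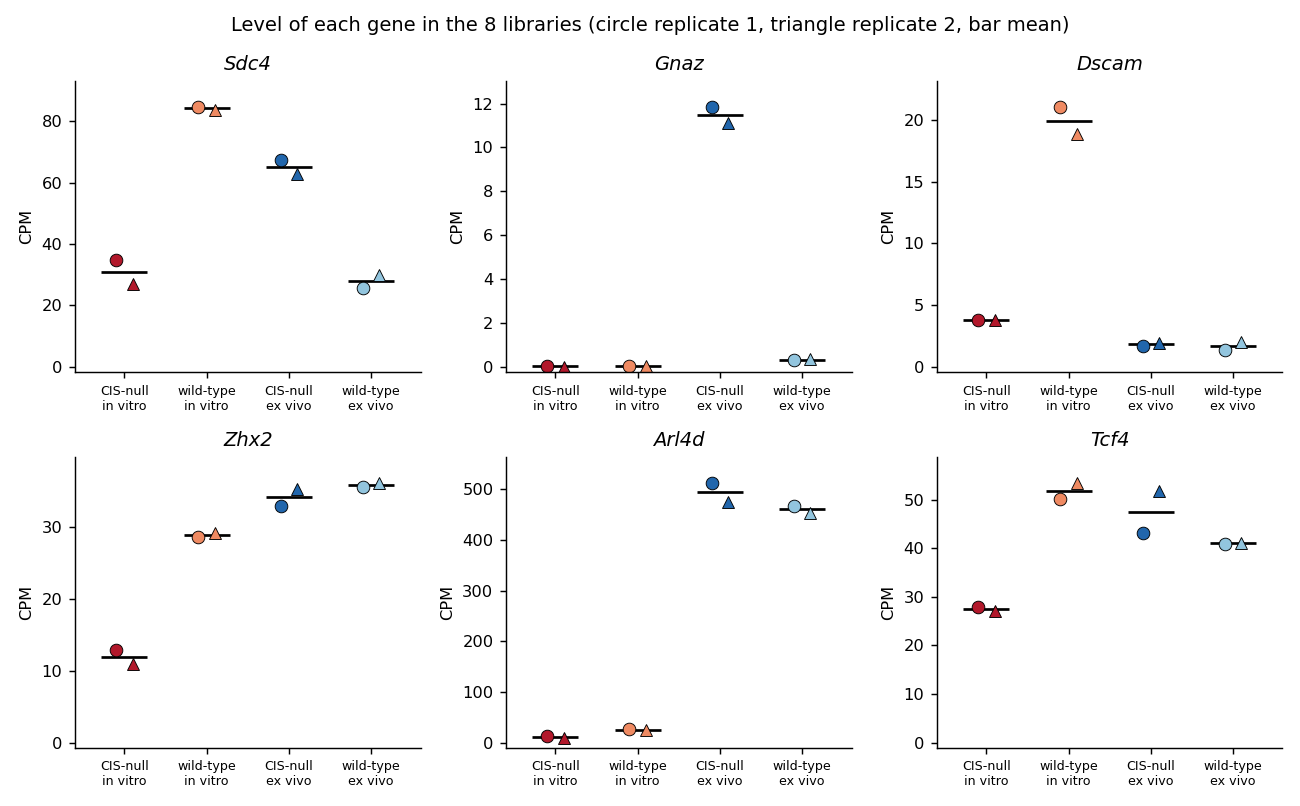
Level in CPM (linear axis) of each of the 6 genes in the 8 libraries, one panel per gene, with CIS-null in vitro, wild-type in vitro, CIS-null ex vivo and wild-type ex vivo from left to right; circles are replicate 1, triangles replicate 2 and bars the mean of both. Sdc4 is high in wild-type in vitro and CIS-null ex vivo libraries, Gnaz stands out in CIS-null ex vivo libraries alone, Dscam in wild-type in vitro libraries alone, and Arl4d lies at 453.7 CPM or more ex vivo and at 26.2 CPM or less in vitro.

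Sdc4 encodes syndecan-4, a transmembrane proteoglycan whose heparan sulphate chains bind growth factors, chemokines and matrix proteins, and whose cytoplasmic tail binds protein kinase C alpha and syntenin. The gene lies at chr2:164424247-164443188 of GRCm38.p6. It had 34.9 and 26.9 CPM in CIS-null in vitro, 84.6 and 83.7 CPM in wild-type in vitro, 67.5 and 62.7 CPM in CIS-null ex vivo, and 25.7 and 30.0 CPM in wild-type ex vivo libraries. The genotypes did not overlap in either state, and their order was opposite: CIS-null was the lower genotype in vitro and the higher one ex vivo. Wild-type in vitro was the highest group and CIS-null ex vivo came next, while CIS-null in vitro and wild-type ex vivo libraries overlapped at the bottom. The log2 change between genotypes was -1.45 in vitro (SE 0.136, n = 2 per group) and 1.23 ex vivo (SE 0.136, n = 2 per group), a difference of -2.67 (SE 0.192). Leaving out any 1 library moved that difference between -2.87 and -2.49.

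The groups with the higher Sdc4 levels were also those with the higher levels of Y-linked genes, which are carried by males alone. Eif2s3y, a translation initiation subunit, had 0.0386 and 0 CPM in CIS-null in vitro, 135 and 122 CPM in wild-type in vitro, 84.9 and 70.4 CPM in CIS-null ex vivo, and 34.1 and 21.7 CPM in wild-type ex vivo libraries. The wild-type ex vivo libraries thus held Xist and Y-linked transcripts together. The 4 libraries with the lower Sdc4 levels were the 4 with abundant Xist. Of all 13184 genes, 23 had a level in CIS-null cells at least 2-fold above wild-type ex vivo and at least 2-fold below it in vitro, and in 9 of them the libraries did not overlap in either state. At a mean of at least 5 CPM, 5 genes were left: Sdc4 and the Y-linked Kdm5d, Eif2s3y, Uty and Ddx3y. The rest of the 9 had lower means and are not named. Sdc4 was chosen by these same changes, so its place among them was fixed by the choice. The part of sex-linked expression in the Sdc4 levels was not tested.

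**Figure D2:**
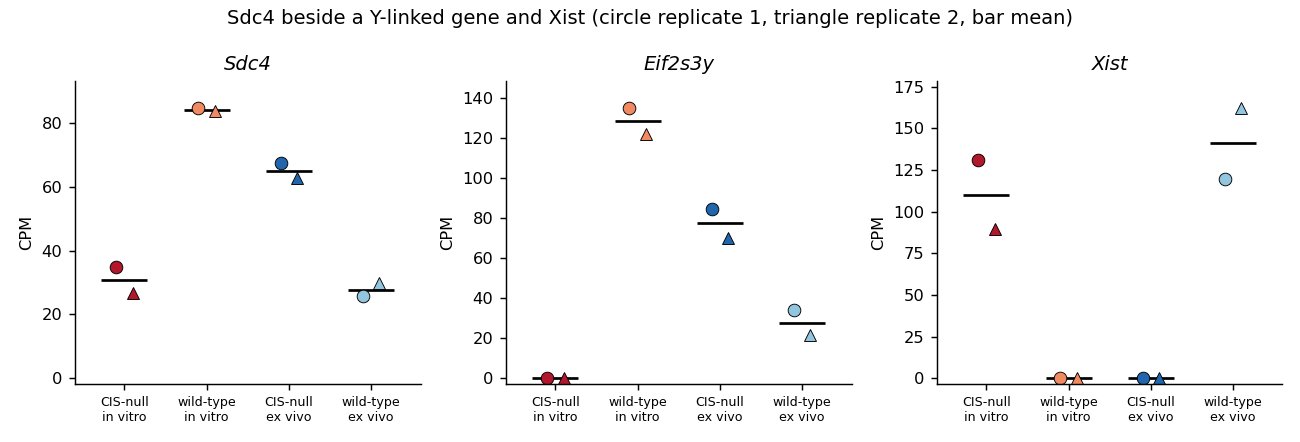
Levels in CPM (linear axis) of Sdc4, the Y-linked gene Eif2s3y and Xist in the 8 libraries, with CIS-null in vitro, wild-type in vitro, CIS-null ex vivo and wild-type ex vivo from left to right; circles are replicate 1, triangles replicate 2 and bars the mean. Sdc4 and Eif2s3y are both highest in wild-type in vitro and next in CIS-null ex vivo libraries, the 2 groups in which Xist stays at 0.322 CPM or below.

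The 250 bases before the Sdc4 start are shown since Sdc4 alone of the 6 changed over 2-fold in opposite directions in the 2 states. In the RefSeq table for GRCm38.p6 they lie at chr2:164443189-164443438 on the minus strand and are 68% G or C. Capitals mark GGGAATTCC, a sequence like the binding site of NF-kappa B, from 81 to 73 bases before the start.
Sdc4: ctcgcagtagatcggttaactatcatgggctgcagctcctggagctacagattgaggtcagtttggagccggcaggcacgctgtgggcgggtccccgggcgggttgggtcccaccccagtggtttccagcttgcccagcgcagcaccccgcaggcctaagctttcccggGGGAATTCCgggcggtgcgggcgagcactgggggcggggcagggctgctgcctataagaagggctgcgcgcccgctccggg
Letters of this kind (GGGAATTCC or GGAATTCCC, either strand) stood in 0.21% of 32851 such windows of all genes. The motif was looked for after the window had been read, and a match is not evidence of binding. The letters TTCNNNGAA, the core bound by STAT factors, stood in 7.02% of all windows, and the E-box CANNTG, which E proteins such as TCF4 bind, in 66.2%. Neither was present in this window.

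Dscam encodes an immunoglobulin-superfamily adhesion molecule known for self-avoidance and guidance of neurons, where it also acts as a netrin receptor and binds the kinase PAK1. It lies at chr16:96587452-97171113 of GRCm38.p6. It had 3.82 and 3.76 CPM in CIS-null in vitro, 21.1 and 18.9 CPM in wild-type in vitro, 1.66 and 1.97 CPM in CIS-null ex vivo, and 1.35 and 1.97 CPM in wild-type ex vivo libraries. Wild-type in vitro stood above all other groups, CIS-null in vitro came next, and the ex vivo groups overlapped at the bottom. The log2 change between genotypes was -2.40 in vitro (SE 0.188, n = 2 per group), the largest of the 5 genes with an in vitro value (Gnaz had too few counts for one), and 0.13 ex vivo (SE 0.231, n = 2 per group). Ex vivo the sign turned without CIS-null ex vivo replicate 2 (-0.01) or wild-type ex vivo replicate 1 (-0.12), it was 0.43 without wild-type ex vivo replicate 2, and the counts behind it were 86 in CIS-null and 82 in wild-type libraries. With the trend of each library with gene length removed, the in vitro change was -1.94. In the GENCODE M21 annotation, 1.98% and 1.12% of the Dscam exon bases overlap 2 genes of the opposite strand that have no symbol. Whether counting used strand is not given in the sources used here.

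Gnaz encodes the alpha subunit of the G protein Gz, a relative of the Gi subunits that inhibits adenylyl cyclase, hydrolyses GTP slowly and is resistant to pertussis toxin. It lies at chr10:74967177-75016907 of GRCm38.p6. Counts were 1 and 0 in CIS-null in vitro, 1 and 1 in wild-type in vitro, 257 and 282 in CIS-null ex vivo, and 7 and 9 in wild-type ex vivo libraries. Scaled, the CIS-null ex vivo libraries held 11.8 and 11.1 CPM and the wild-type ex vivo libraries 0.294 and 0.355 CPM, and all 4 in vitro libraries held 0.0386 CPM or less. Gnaz was therefore at an appreciable level in a single group. Ex vivo the log2 change between genotypes was 5.12 (SE 0.309, n = 2 per group), the largest of the 6 genes, and the summed counts of 539 in CIS-null and 16 in wild-type libraries give a ratio of 35.1 (95% counting interval 21.4 to 61.8). In vitro, 1 count in CIS-null and 2 in wild-type libraries give a ratio of 0.562 (95% counting interval 0.00953 to 10.8), so no genotype change was detectable at this depth. The intervals cover counting error only.

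Cell types other than NK cells are known to use Gz, platelets among them. All 9 platelet and megakaryocyte markers listed were detected ex vivo, at a summed level of 32 to 38.5 CPM in CIS-null and 31 to 35.4 CPM in wild-type libraries, which overlap. Markers of basophils and mast cells, all 7 detected ex vivo, did separate the genotypes, with 38.4 and 18.4 CPM in CIS-null and 11.4 and 9.04 CPM in wild-type libraries. Their log2 changes for genotype ex vivo ran from 1.12 (Gata2) to 2.57 (Fcer1a). By edgeR 0 of the 7 were called, beside 0.0607% of all tested genes, so nothing is read from the lack of calls. Sums of other lists separated the genotypes too, by different amounts. Conventional dendritic cell markers had 1079 to 1128 CPM in CIS-null and 938 to 1035 CPM in wild-type libraries, mostly from Itgax. NK cell markers were also higher in CIS-null libraries, and neutrophil markers were lower. The median log2 genotype change was 1.45 for basophil and mast cell markers, against 0.02 over all tested genes. It was 0.55 for conventional dendritic cell, 0.11 for NK cell and -1.04 for neutrophil markers. The CIS-null libraries with 38.4 and 18.4 CPM of the basophil and mast cell markers had 11.8 and 11.1 CPM of Gnaz. In vitro, 3 of these markers in CIS-null cells (Fcer1a, Ms4a2 and Gata2) and 2 in wild-type cells (Fcer1a and Ms4a2) were at 0, and Gnaz was at or near 0 in the same libraries. The sum of the list was nevertheless higher there, 51.9 to 74.2 CPM in CIS-null and 29 to 37.5 CPM in wild-type libraries, led by Mcpt8 and Cpa3. The part of such cells in the Gnaz level was not tested. In these bulk samples, fewer cells of a type and less RNA per cell cannot be told apart.

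Arl4d encodes an ARF-like small GTPase that, once bound to GTP, recruits cytohesins to the plasma membrane, where they activate ARF6 and remodel actin. It lies at chr11:101665541-101667832 of GRCm38.p6. It had 12.7 and 9.93 CPM in CIS-null in vitro, 26.2 and 24.2 CPM in wild-type in vitro, 513 and 475 CPM in CIS-null ex vivo, and 468 and 453.7 CPM in wild-type ex vivo libraries. Its level differed far more between the states than between the genotypes. CIS-null libraries lay below wild-type in vitro and just above them ex vivo, without overlap in either state. The log2 change between genotypes was -1.15 in vitro (SE 0.129, n = 2 per group) and 0.10 ex vivo (SE 0.115, n = 2 per group), so the ex vivo change was smaller than its error. In vitro it ran from -1.35 to -0.99 when 1 library was left out.

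The 250 bases before the Arl4d start are shown for the most abundant of the 6 genes ex vivo. They lie at chr11:101665291-101665540 on the plus strand of GRCm38.p6 (RefSeq table) and are 54.4% G or C. Capitals mark ATTGG, which is a CCAAT box read on the other strand, from 42 to 38 bases before the start, and TGACGTCA, the full cAMP response element, from 26 to 19 bases before it.
Arl4d: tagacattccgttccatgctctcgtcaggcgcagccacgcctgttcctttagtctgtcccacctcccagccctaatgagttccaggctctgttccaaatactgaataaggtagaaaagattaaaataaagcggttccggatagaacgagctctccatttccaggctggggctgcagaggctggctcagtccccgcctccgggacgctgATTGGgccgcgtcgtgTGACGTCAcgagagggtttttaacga
A CCAAT box (CCAAT or ATTGG) stood in 33.8% of the 32851 windows and TGACGTCA in 1.55%. The cAMP response element was looked for after the window had been read. The STAT core and the E-box were not found in these bases. Windows matched 3 of the 6 genes, and that of Dscam held none of the 5 motifs. The Dscam window, chr16:97170736-97170985 on the minus strand, lies within the gene span given above and overlaps a Dscam exon. It is therefore not the sequence before that span.

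Zhx2 encodes a zinc-finger and homeobox protein that binds the NF-Y subunit NFYA and represses transcription, and it is known in mouse liver for silencing alpha-fetoprotein after birth. It lies at chr15:57694667-57839832 of GRCm38.p6. It had 12.9 and 11.0 CPM in CIS-null in vitro, 28.5 and 29.2 CPM in wild-type in vitro, 32.9 and 35.3 CPM in CIS-null ex vivo, and 35.6 and 36.1 CPM in wild-type ex vivo libraries. CIS-null in vitro stood apart as the low group, and the other 3 groups lay within 28.5 to 36.1 CPM. The genotypes did not overlap in vitro, and ex vivo the higher CIS-null library lay just under the lower wild-type one. The log2 change between genotypes was -1.27 in vitro (SE 0.108, n = 2 per group) and -0.07 ex vivo (SE 0.103, n = 2 per group), and the second is smaller than its error.

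Tcf4 encodes E2-2, a basic helix-loop-helix factor of the E protein family that is required for plasmacytoid dendritic cells, and is distinct from the Wnt effector of the same nickname. It lies at chr18:69343429-69687967 of GRCm38.p6. It had 27.9 and 27.2 CPM in CIS-null in vitro, 50.3 and 53.5 CPM in wild-type in vitro, 43.2 and 51.9 CPM in CIS-null ex vivo, and 40.9 and 41.2 CPM in wild-type ex vivo libraries. CIS-null in vitro was again the low group, and the wild-type in vitro and CIS-null ex vivo libraries overlapped. The log2 change between genotypes was -0.91 in vitro (SE 0.107, n = 2 per group) and 0.21 ex vivo (SE 0.106, n = 2 per group). With the length trend removed the in vitro change was -0.45, while it ran from -0.93 to -0.87 when 1 library was left out. Of 10 markers of plasmacytoid dendritic cells, Siglech, Spib and Klk1 were at 0 in all 4 in vitro libraries. Siglech and Klk1 were also at 0 in CIS-null ex vivo libraries and averaged 0.0395 CPM each in wild-type ex vivo libraries. Spib averaged 3.82 CPM in CIS-null ex vivo and 2.33 CPM in wild-type ex vivo libraries. The sum of the list was 268 to 296 CPM in CIS-null in vitro and 186 to 191 CPM in wild-type in vitro libraries, an order opposite to that of Tcf4. It was 471 to 710 CPM in CIS-null ex vivo and 499 to 521 CPM in wild-type ex vivo libraries, led in every group by Irf8, which other leukocytes also express.

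**Figure D3:**
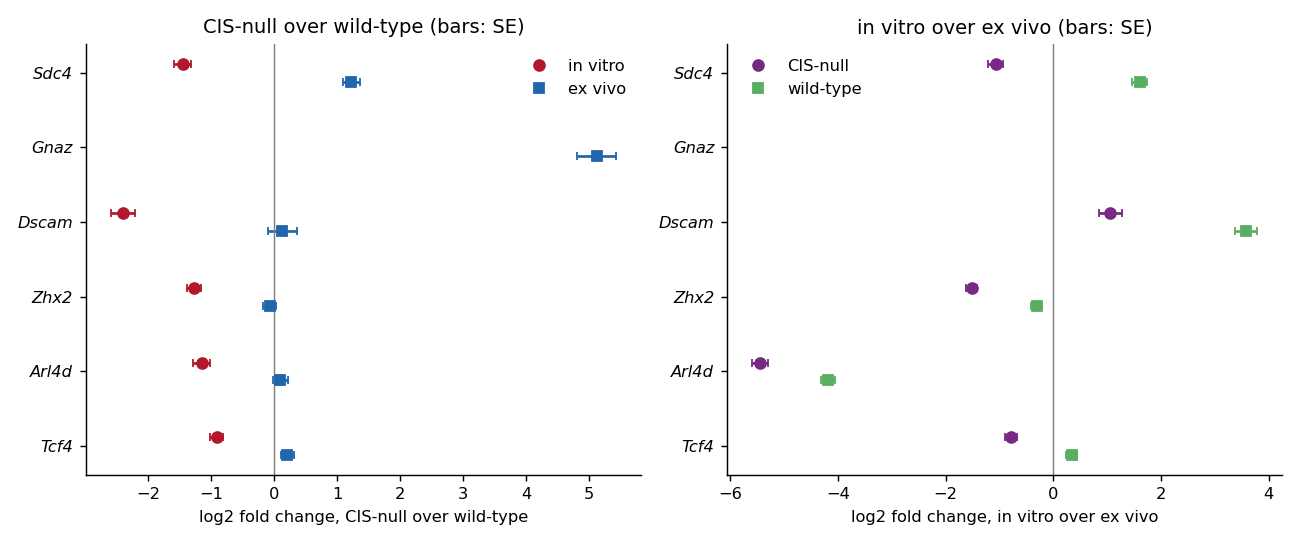
Log2 fold changes of the 6 genes with standard errors as bars: CIS-null over wild-type in vitro (circles) and ex vivo (squares) on the left, and in vitro over ex vivo in CIS-null (circles) and wild-type cells (squares) on the right. In vitro all 5 genes drawn lie between -2.40 and -0.91 on the left, while ex vivo only Sdc4 and Gnaz lie beyond 1; Gnaz is drawn for the ex vivo comparison alone, since its in vitro counts were at most 1 per library.

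Over the 6 genes, CIS-null libraries lay below wild-type ones without overlap for 5 in vitro, against 35.1% of all tested genes, and above them for 0, against 33.7%. Ex vivo they lay above without overlap for 4 (Sdc4, Gnaz, Arl4d and Tcf4), against 22% of tested genes, and below for 1 (Zhx2), against 18.4%. Sdc4, Arl4d and Tcf4 did both, lying above ex vivo and below in vitro, as did 3.94% of tested genes. These comparisons chose the genes, and nothing is read from the counts. By edgeR at an adjusted p under 0.05, the difference between the states was called for 18 genes or 0.137% of those tested, 7 of them on the X or Y chromosome. A negative difference was called for 11 genes, 0.0834% of those tested. Of these 5 are genes of the set, which that same difference chose, so the count is fixed by the choice and nothing is read from it. The other autosomal genes with a negative difference were Il18r1, a subunit of the interleukin-18 receptor, at -1.22, and the NK receptor gene Klrb1f at -0.99, both on the log2 scale and named here after their values were seen. For the 5 members the difference was -2.67 for Sdc4, -2.52 for Dscam, -1.25 for Arl4d, -1.20 for Zhx2 and -1.13 for Tcf4. None is given for Gnaz, whose in vitro counts are at the floor.

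How did these genes differ between in vitro and ex vivo libraries? This was asked of the mean of both genotypes, in vitro over ex vivo, which is not the comparison that chose them. It rests on the same libraries and the same replicate spread, so its p-values are not fully free of the choice. For Gnaz it is not free of the choice: 539 of its 555 ex vivo counts came from CIS-null libraries, the group whose level singled it out, and no test of culture is given for it. Of the other 5 genes 2 were higher in vitro and 3 lower, beside 38.1% of all tested genes called higher and 39.7% called lower, or 77.8% in all, so a call here is the usual outcome. Marker sums of other cell types also differed between the states, so cell mixture and expression per cell cannot be told apart. Changes on culture are given below as in vitro over ex vivo, and their cause was not tested. Arl4d fell by 4.82 on the log2 scale (SE 0.0980, edgeR adjusted p = 7.65e-09) and Zhx2 fell by 0.91 (SE 0.0746, edgeR adjusted p = 6.69e-06). Dscam rose by 2.32 (SE 0.147, edgeR adjusted p = 1.63e-06). The Dscam mean leans on the group that singled the gene out, with 1143 counts in wild-type in vitro against 193 in CIS-null in vitro libraries. The Zhx2 mean likewise leans on CIS-null in vitro libraries, its low group. In vitro and ex vivo libraries did not overlap in either genotype for these 3 genes, 1 higher in vitro against 33.2% of tested genes and 2 lower against 34.3%. All 3 kept their call and direction under the 17 alternatives.

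The 2 remaining calls were small and rested on few libraries. Sdc4 was higher in vitro by 0.26 on average (SE 0.0951, edgeR adjusted p = 0.0317), a mean of opposite moves: in vitro over ex vivo, its log2 change was -1.07 in CIS-null cells (SE 0.136) and 1.60 in wild-type cells (SE 0.137). Its call did not hold with library totals as scaling (adjusted p = 0.103), nor when the fit left out CIS-null ex vivo replicate 2 (0.0693), wild-type ex vivo replicate 1 (0.126), CIS-null in vitro replicate 1 (0.0916), or wild-type in vitro replicate 1 (0.0745) or replicate 2 (0.0666), by edgeR. Tcf4 was lower in vitro by a log2 change of -0.22 (SE 0.0751, edgeR adjusted p = 0.0222), with -0.79 in CIS-null cells (SE 0.107) and 0.34 in wild-type cells (SE 0.105). With the length trend removed its mean change turned to 0.37 (edgeR adjusted p = 0.000831). This call did not hold when the fit left out CIS-null ex vivo replicate 2 (0.0630), wild-type ex vivo replicate 1 (0.0664) or replicate 2 (0.0725), CIS-null in vitro replicate 2 (0.0561), or wild-type in vitro replicate 1 (0.0781), again by edgeR.

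Within each genotype Arl4d, Dscam and Zhx2 moved the same way on culture in CIS-null and wild-type cells, by different amounts. Arl4d had a log2 change of -5.45 in CIS-null cells (SE 0.144) and -4.19 in wild-type cells (SE 0.133). Dscam had 1.06 in CIS-null (SE 0.213) and 3.58 in wild-type cells (SE 0.206), and Zhx2 -1.52 in CIS-null (SE 0.108) and -0.31 in wild-type cells (SE 0.103). Gnaz had 1 count in vitro against 539 ex vivo over the CIS-null libraries, and 2 in vitro against 16 ex vivo over the wild-type libraries. Ex vivo over in vitro, these give a ratio of 582 in CIS-null cells (95% counting interval 104 to 23000) and 9.33 in wild-type cells (95% counting interval 2.19 to 83.6). These intervals cover counting error only. The first rests on the group that singled Gnaz out, and neither is a test of culture. For each gene the gap between the changes in CIS-null and wild-type cells is the same quantity as the difference between the states that chose it, and it is not tested.

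Relatives and partners of the 6 genes moved on culture in both directions. Their counts stand beside the 39.7% of all tested genes called lower and 38.1% called higher, and no test set a list against other genes or against the member it belongs to. Syndecan and heparan sulphate genes, 26 tested, fell in 15 cases and rose in 4, with a median log2 change of -0.46 against -0.02 over all tested genes. Sdc3, the other syndecan with appreciable counts, fell by 3.36 (SE 0.201, edgeR adjusted p = 1.15e-06), with 1.97 CPM in CIS-null in vitro, 3.10 CPM in wild-type in vitro, 28.7 CPM in CIS-null ex vivo and 22.6 CPM in wild-type ex vivo cells on average. Sdc1 and Sdc2 stayed under 0.4 CPM in every group on average. Prkca, the kinase bound by syndecan-4, fell by 2.05 (SE 0.124, edgeR adjusted p = 1.25e-06), and Sdcbp, which encodes syntenin, fell by 0.44 (SE 0.0733, edgeR adjusted p = 0.000538). Of 7 tested genes of the DSCAM and netrin receptor list 6 fell and 1 rose. The gene that rose was Unc5b, a netrin receptor, by 6.41 (SE 0.205, edgeR adjusted p = 4.25e-08), and Pak1 fell by 2.73 (SE 0.305, edgeR adjusted p = 4.51e-05). Dscaml1, the closest relative of Dscam, and Dcc, the classical netrin receptor, had no counts in any library.

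Among 30 tested G protein genes 14 fell and 9 rose on culture, with a median of -0.11, not far from the shares over all tested genes. Gnai2, the most abundant of the Gi subunits here at 1078 CPM in CIS-null in vitro, 1162 CPM in wild-type in vitro, 1026 CPM in CIS-null ex vivo and 1037 CPM in wild-type ex vivo cells, had a log2 change of 0.12 (edgeR adjusted p = 0.162). Gnai3 fell by 0.31 (SE 0.0692, edgeR adjusted p = 0.00271), though not with the length trend removed (0.0519). Gnai1, Gnao1 and Rgs20, the last a brake on Gz, were too low to be tested, and Rgs19 had a change of 0.03 (edgeR adjusted p = 0.699). Of 28 tested genes of the ARF, ARL and cytohesin list 14 fell and 8 rose, with a median of -0.18, which again lies not far from those shares. Arl4c, a close relative of Arl4d, also fell by 2.77 (SE 0.0866, edgeR adjusted p = 3.77e-08), whereas Arl4a had a change of -0.03 (edgeR adjusted p = 0.754). The cytohesins were not uniform: Cyth1 fell by 2.51 (SE 0.0916, edgeR adjusted p = 8.33e-08) and Cyth4 by 1.58 (SE 0.109, edgeR adjusted p = 2.53e-06), Cyth3 rose by 0.88 (SE 0.0838, edgeR adjusted p = 1.74e-05), and Cyth2 had -0.07 (edgeR adjusted p = 0.299). Arf6, the GTPase they activate, had 0.05 (edgeR adjusted p = 0.527).

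In the ZHX and NF-Y list 5 of 6 genes passed as lower and 0 as higher, but 2 of the 5 calls, Nfyb and Homez, depended on single libraries. Those that kept the call under all 17 alternatives were Zhx1, which fell by 0.73 (SE 0.0902, edgeR adjusted p = 8.67e-05), Zhx3, which fell by 1.20 (SE 0.181, edgeR adjusted p = 0.000296), and Nfyc, which fell by 0.44 (SE 0.0802, edgeR adjusted p = 0.000885). Nfya, the partner of ZHX2, had -0.05 (edgeR adjusted p = 0.555). Nfyb passed at -0.18 (edgeR adjusted p = 0.0450), with adjusted p up to 0.142 when 1 library was left out. Homez, a homeobox relative of the ZHX genes, passed at -0.19 (edgeR adjusted p = 0.0391), with adjusted p up to 0.109 when 1 library was left out, and turned to 0.27 with the length trend removed. The calls of Nfyb and Homez were each lost without any 1 of 6 libraries. Of 10 tested genes of the E protein list 7 fell and 3 rose. The E proteins Tcf3 and Tcf12 fell by 1.01 (SE 0.0738, edgeR adjusted p = 3.51e-06) and 0.55 (SE 0.0841, edgeR adjusted p = 0.000331), and the E-box repressor Zeb2 by 4.45 (SE 0.170, edgeR adjusted p = 1.04e-07). Id2, an inhibitor of E proteins that NK cells need, averaged 1243 CPM in CIS-null in vitro, 1183 CPM in wild-type in vitro, 1118 CPM in CIS-null ex vivo and 1017 CPM in wild-type ex vivo cells. Its log2 change of 0.19 (SE 0.0695, edgeR adjusted p = 0.0359) turned to -0.11 with the length trend removed (edgeR adjusted p = 0.101) and was lost without any 1 of 6 libraries (0.0661 to 0.124). Id1 passed as higher at under 0.7 CPM (edgeR adjusted p = 0.0258) and lost the call without any 1 of 7 libraries, with adjusted p up to 0.108.

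Did the relatives change with genotype as well? Ex vivo, where 8 genes or 0.0607% of those tested were called, 0 of the 107 tested family genes passed by edgeR, 13 had an unadjusted p under 0.05 beside 844 of the 13184 tested genes, and DESeq2 called 1 and limma-voom 0. For the difference between the states 0 of the 107 passed by edgeR, 23 had an unadjusted p under 0.05 beside 2586 of the 13184, and DESeq2 called 3 and limma-voom 0. In vitro, where 25.6% of tested genes were called (11% higher, 14.6% lower), 29 of the 107 family genes passed by edgeR, 6 higher and 23 lower. In total this is not far from the share over all tested genes. The E protein gene Tcf3 had a log2 change of -0.60 (SE 0.104, edgeR adjusted p = 0.00771), with 53.5 CPM in CIS-null and 81.2 CPM in wild-type cells on average, and it alone of the 29 kept its call whichever of the 8 libraries was left out. Without CIS-null in vitro replicate 2 the other 28 were lost (edgeR adjusted p from 0.0516 to 0.27). Without wild-type in vitro replicate 1 or replicate 2, 24 and 21 did not pass. Leaving out a wild-type ex vivo library, whichever it was, removed 17, and leaving out CIS-null in vitro replicate 1 removed 7. With the length trend removed 14 of the 29 did not pass. Other lower values in CIS-null cells were those of Asap1, which switches ARF proteins off (-1.42, edgeR adjusted p = 0.00654), Zeb2 (-1.13, edgeR adjusted p = 0.0130), Nck2, an adaptor that links receptors to PAK kinases (-0.98, edgeR adjusted p = 0.0186), and Xylt2, which starts heparan sulphate chains (-0.75, edgeR adjusted p = 0.00737). Cyth1 (-0.52, edgeR adjusted p = 0.0213), Cyth3 (-0.44, edgeR adjusted p = 0.0275), Cyth4 (-0.48, edgeR adjusted p = 0.0495) and Nfya (-0.36, edgeR adjusted p = 0.0447) were lower too, as were Arfgef1 (-0.54, edgeR adjusted p = 0.0227) and Arfgef2 (-0.70, edgeR adjusted p = 0.0244), which load ARF proteins with GTP at the Golgi.

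Higher in CIS-null cells in vitro were 3 genes of the ARF list, among them Arf4, a small GTPase of the Golgi (0.51, edgeR adjusted p = 0.0142), which did not pass without CIS-null in vitro replicate 2 (0.0906) or wild-type in vitro replicate 1 (0.0886). Rgs16, a regulator that speeds GTP hydrolysis by Gi and Gq subunits, was at 0.65 (edgeR adjusted p = 0.0470, up to 0.244 without CIS-null in vitro replicate 1). Id3 also passed (edgeR adjusted p = 0.00657, and 0.0548 without CIS-null in vitro replicate 2), at 0.967 CPM in CIS-null and 0.0348 CPM in wild-type cells on average. Other near relatives did not pass in vitro: Sdc3 had a log2 change of -0.65 (edgeR adjusted p = 0.161), Zhx1 -0.38 (0.0580), Zhx3 -0.65 (0.103), Tcf12 -0.36 (0.0574), Arl4a 0.33 (0.0874), Arl4c -0.01 (0.952), Gnai2 -0.11 (0.464) and Gnai3 0.15 (0.302). Whether the members differed from their relatives in the genotype change was not tested. Genotype in vitro cannot be told apart from sex-linked expression in any of these genes, since there Xist was abundant in CIS-null libraries alone.

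**Figure D4:**
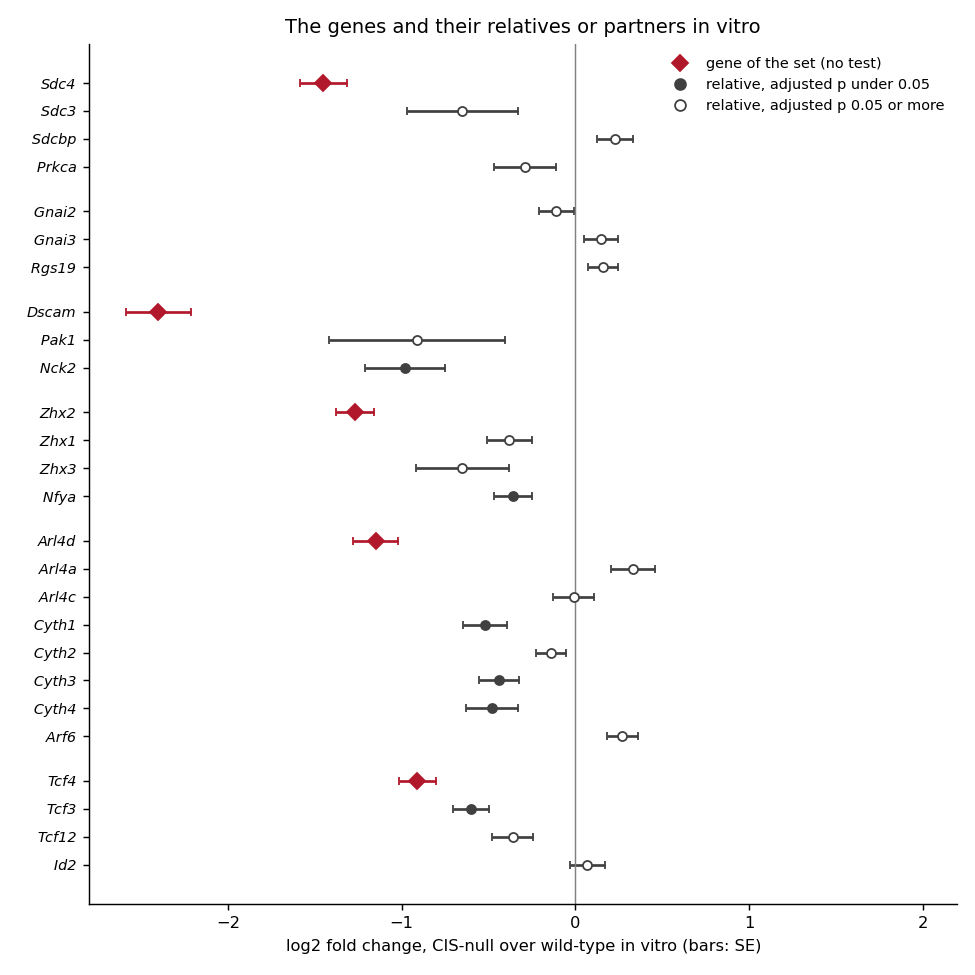
Log2 fold change of CIS-null over wild-type cells in vitro with standard errors as bars, for 5 genes of the set (diamonds, no test) and beneath each its relatives or partners (circles, filled at an edgeR adjusted p under 0.05). Gnai2, Gnai3 and Rgs19 are relatives or regulators of Gnaz, which is not drawn. The diamonds lie between -2.40 and -0.91, and among the relatives Tcf3 at -0.60 and Nck2 at -0.98 are filled while Sdc3, Zhx1, Arl4c and Gnai2 are open.

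Other cell types could add transcripts to these libraries. T cell markers, all 9 detected in every group, summed to 925 to 927 CPM in CIS-null in vitro, 227 to 259 CPM in wild-type in vitro, 138 to 221 CPM in CIS-null ex vivo and 184 to 208 CPM in wild-type ex vivo libraries, led by Cd3g in vitro and by Cd28 ex vivo. Their sum thus stood apart in CIS-null in vitro libraries, carried mostly by the Cd3 chains. In that group Arl4d, Zhx2 and Tcf4 were lowest, with Gnaz at the floor in both in vitro groups. Cd3d averaged 256 CPM in CIS-null and 19.3 CPM in wild-type cells in vitro, and Cd3e 77.7 CPM in CIS-null and 6.69 CPM in wild-type cells. The coreceptor genes were low in both, with Cd8b1 at 0.548 CPM in CIS-null and 0.0348 CPM in wild-type cells and Cd4 at 0.02 CPM in CIS-null and 0.0873 CPM in wild-type cells. For genotype in vitro 25.6% of all tested genes were called, 11% as higher. Of the 9 markers 4 were called, all higher in CIS-null cells. Among those not called were Cd28 (edgeR adjusted p = 0.0887), Cd6 (0.583) and Trat1 (0.857). B cell markers were at 0.732 CPM or less in vitro, with Ms4a1, Pax5 and Cd22 at 0 in both genotypes. Ex vivo they ran from 16.1 to 87.4 CPM in CIS-null and from 27.7 to 32.4 CPM in wild-type libraries. Their part in the levels of the 6 genes was not tested. Log ratios also fell with gene length across genes, with a Spearman correlation of -0.461 for genotype in vitro and -0.287 ex vivo over 13184 genes, which are not independent replicates. Between replicates the same correlation reached 0.451 in CIS-null in vitro and -0.37 in CIS-null ex vivo cells. Counted lengths of the 6 genes run from 1382 bases for Arl4d to 7481 for Dscam and 7681 for Tcf4.

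The genes whose log2 CPM over the 8 libraries was most like each member were sought among 9204 genes with a mean of at least 5 CPM. The 8 libraries share 4 groups, so these Pearson correlations are descriptions and mostly restate group means. For Arl4d they included Axin1 (r = 0.9997) and Rasgrp2 (0.9993). Rasgrp2, an activator of the small GTPase Rap1, had 7.21 and 6.33 CPM in CIS-null in vitro, 12.8 and 13.4 CPM in wild-type in vitro, 128 and 136 CPM in CIS-null ex vivo, and 123 and 132 CPM in wild-type ex vivo libraries. For Zhx2 they were Kdm4a (0.9978), Bcas3 (0.9944) and Stat2 (0.9943), the last a transducer of interferon signals, with 18.3 and 16.7 CPM in CIS-null in vitro, 36.9 and 36.1 CPM in wild-type in vitro, 42.6 and 48.1 CPM in CIS-null ex vivo, and 47.9 and 50.5 CPM in wild-type ex vivo libraries. For Stat2 as for Zhx2, the CIS-null in vitro libraries were the lowest. For Dscam they were Ccdc92 (0.9831), Vipas39 (0.9793) and Ahi1 (0.9789).

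For Tcf4 the closest genes were Pak4 (0.9821), Cxxc5 (0.9702) and the Y-linked Uty (0.9648). Uty had 0 and 0 CPM in CIS-null in vitro, 39.2 and 40.1 CPM in wild-type in vitro, 33.8 and 26.5 CPM in CIS-null ex vivo, and 11.2 and 7.06 CPM in wild-type ex vivo libraries. The group order of its means is that of Tcf4. For Sdc4 the closest genes were Cited4 (0.9295), Rabgap1l (0.9138) and Naa35 (0.9116). Cited4, a transcriptional coactivator, had 15.7 and 11.1 CPM in CIS-null in vitro, 22.6 and 19.5 CPM in wild-type in vitro, 20.3 and 18.9 CPM in CIS-null ex vivo, and 13.2 and 15.2 CPM in wild-type ex vivo libraries, with the same top groups as Sdc4 at a smaller amplitude. For Gnaz they were Fam32a (0.9725), Dnajb2 (0.9676) and Rbm39 (0.9647), which were highest in CIS-null ex vivo libraries but present in all. Fam32a had 134 and 132 CPM in CIS-null in vitro, 130 and 134 CPM in wild-type in vitro, 175 and 191 CPM in CIS-null ex vivo, and 150 and 152 CPM in wild-type ex vivo libraries, so the likeness to Gnaz is one of order and not of size. Between members the correlation was highest for Zhx2 with Tcf4 (0.856) and lowest for Arl4d with Dscam (-0.692), over the same 8 libraries.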

How the data were processed

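Gene expression in the 8 libraries was measured by RNA sequencing. Per the submitters' processing notes the authors used Subread, featureCounts and limma with GRCm38/mm10; versions, the strand setting and the role of each tool are not given in the sources used here. The deposited table holds raw read counts for 27179 genes with counted gene lengths, 565 of them without a symbol, and 21.5 to 28.1 M counts per library. Separate deposited files give log2 RPKM for 12372 genes, whose sorted values after removal of gene length were nearly identical between libraries (median difference 0.00222), and they were used only in 1 alternative. Members, gene lists and tests were chosen with earlier results of these data known.

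The counts were modelled in edgeR 4.0.16 (R 4.3.3). Low genes were removed with filterByExpr (minimum count 10, minimum total 15), which left 13184. All 8 libraries were scaled by the trimmed mean of M values and fitted with 1 mean per group (residual df 4, prior df 4.45, common dispersion 0.0141). Quasi-likelihood F tests compared culture averaged over genotypes, genotype in each state and the difference between states, with Benjamini-Hochberg adjustment over all tested genes and a threshold of 0.05. SE is the absolute log2 change over the square root of F. Summed counts of Gnaz are given as ratios with exact 95% counting intervals, which cover counting error only. Replicate libraries differed beyond counting noise, with chi-square over its degrees of freedom at 5.82 to 33. The test was also run on simulated data with known changes.

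Alternatives were RLE factors, library totals, no filter, at least 5 CPM in 2 libraries, DESeq2 1.42.0, limma-voom (limma 3.58.1), the gene length trend of each library removed (spline with 4 df), a replicate block, limma on log2 RPKM, and leaving out each library. Besides the 6 genes and sex-linked checks, the text names fixed relatives and partners, up to 4 further genes per family list and comparison by lowest p, the 3 most correlated genes per member, the leading cell type markers and markers at 0. Of the listed symbols 1 was not found in the table. Positions and promoter windows are from RefSeq tables for GRCm38.p6. No library was left out. A few genes that these rules also named are not reported here.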

Additional observations from a re-analysis of the deposited data

Results flagged for a closer look

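For 3 of the 6 genes every CIS-null library lay below the wild-type libraries in vitro and above them ex vivo, as did 3.94% of tested genes. The genes were chosen by such changes, and nothing is read from this count. The log2 genotype change in vitro minus that ex vivo was -2.67 for Sdc4, -1.25 for Arl4d and -1.13 for Tcf4. These differences are not tested here, since they chose the genes, and for Arl4d and Tcf4 the ex vivo change itself was 0.10 (SE 0.115) and 0.21 (SE 0.106).

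By edgeR the genotype change also differed between the states for the sex-linked Xist (adjusted p = 2.11e-06), Eif2s3y (1.4e-05), Ddx3y (9.54e-05), Uty (9.54e-05) and Kdm5d (6.52e-05). Among the marker lists it differed for Cd3g (edgeR adjusted p = 0.0296), a chain of the T cell receptor complex that averaged 473 CPM in CIS-null in vitro, 139 CPM in wild-type in vitro, 9.14 CPM in CIS-null ex vivo and 14 CPM in wild-type ex vivo cells.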

How the results depend on the processing

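With 2 libraries per group, counts of called genes depended on single libraries. Leaving out each in turn gave 9599 to 10399 calls for culture averaged over genotypes (10260 with all), 3 to 41 for genotype ex vivo (8 with all), 500 to 4296 for genotype in vitro (3374 with all) and 6 to 378 for the difference between the states (18 with all). Genotype ex vivo had 23 calls without a low-count filter, 45 by DESeq2 and 19 with the length trend removed, and the difference between the states had 75, 592 and 137. For the difference between the states the replicate block left 6 and limma on the deposited log2 RPKM left 1. In vitro 42.8% of calls were higher, against 21.2% with library totals, where the median of all genes was -0.13, and 53.4% with the length trend removed. Replicate numbers only name the samples: same-numbered deviations correlated at -0.232 to 0.146, and the replicate block otherwise gave 10037, 6 and 2527 calls for culture, genotype ex vivo and genotype in vitro. Signs turned for Dscam ex vivo without CIS-null ex vivo replicate 2 (-0.01) or wild-type ex vivo replicate 1 (-0.12), and the value was 0.43 without wild-type ex vivo replicate 2. On culture they turned with the length trend removed for Tcf4 (0.37), Adam10 (0.12), Gna13 (0.28), Homez (0.27), Arl5a (0.07) and Id2 (-0.11). The causes were not tested. Over single genes and family lists, 2200 values kept direction and side of the threshold (or, untested, lay within the replicate spread, or for counts within 1.5 times), 234 lost the call and 80 moved further.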
